A study of Mus musculus with 3 samples.

Results

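The cells described here are MIM-treated mouse cortical astrocytes that carried mRNA of G2 and M phase genes. Members were the cells of the MIM-treated library with at least 200 detected genes, at most 20% mitochondrial UMIs (unique molecular identifiers, each counted as 1 captured mRNA) and at least 5 UMIs summed over 8 genes of late cell cycle: Top2a, Cenpf, Ube2c, Birc5, Ccnb2, Hmmr, Cdca8 and Ckap2l. They numbered 3310 of 14964 kept MIM-treated cells, or 22.1% (95% Clopper-Pearson interval 21.5% to 22.8%), in a series of 33927 kept cells. These markers chose the cells, so their levels are a description.

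All 3 cultures came from C57BL/6 cortex, all carry the label E14.5, and each was 1 library of droplet-based single-cell RNA sequencing. Neural stem cells grew as neurospheres without serum, in EGF and FGF2 at 20 ng/mL each, and astrocytes were kept in medium with 10% serum until mature. MIM is a serum-free medium with B27 and N2 supplements, FGF2 at 20 ng/mL and up to 6 metabolites (the amino acids glycine, cysteine, methionine and threonine, with putrescine and S-adenosylmethionine). The labels do not give the mixture or the exact day for this library (at most day 5), nor whether the astrocytes were postnatal, in which case they had been sorted on the glutamate transporter GLAST, or made from neurospheres. Treated and untreated astrocytes thus differ at once in the base medium, serum, metabolites and FGF2. With 1 library per culture there are no replicates, and cells do not stand in for them, so values are given without p-values. Exact 95% intervals are given in brackets and cover counting error only.

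A cell enters G2 once its DNA is copied and then builds the proteins that condense, align and pull apart its chromosomes. Cyclin B with Cdk1 drives entry into mitosis, and the anaphase-promoting complex ends it by marking cyclin B and securin for destruction. Many genes of this programme share a promoter element called CHR, read by the MuvB complexes with B-Myb and FoxM1, and CCAAT boxes read by NF-Y. Mature astrocytes rarely divide in the healthy brain, but can do so in culture and after injury.

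The promoters of the marker genes show these letters. RefSeq windows (GRCm38.p6) of 250 bases before to 50 bases after the start were searched for TTTGAA, the CHR core, and for CCAAT, each on both strands (TTCAAA and ATTGG on the other). Matches of the 2 motifs may share bases at their ends. Both motifs were found for 7 of the 8 marker genes, all but Birc5, against 7.12% of the 27025 windows in the table. The 100 bases before the start are shown, with both motifs in capitals, for those of the 8 markers and of the 15 other genes with the greatest excess in members that held both motifs there. Ube2c met this too, but more than 30 of its bases lie inside the gene as GENCODE annotates it, and it is not printed. Those of Cdk1 and Cdc20 reach into the annotated gene by fewer bases, since the starts of the 2 annotations differ. The promoter of F3, tissue factor, one of the genes lowest in members, is added for contrast.
Top2a (chr11:99024190-99024289, minus strand): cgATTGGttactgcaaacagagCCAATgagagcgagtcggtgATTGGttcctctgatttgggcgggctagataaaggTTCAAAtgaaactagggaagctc
Ckap2l (chr2:129297213-129297312, minus strand): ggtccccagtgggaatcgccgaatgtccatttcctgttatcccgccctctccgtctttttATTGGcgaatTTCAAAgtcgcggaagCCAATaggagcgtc
Cdk1 (chr10:69352913-69353012, minus strand): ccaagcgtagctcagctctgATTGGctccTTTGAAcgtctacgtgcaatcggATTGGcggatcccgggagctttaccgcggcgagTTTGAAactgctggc
Depdc1a (chr3:159495333-159495432, plus strand): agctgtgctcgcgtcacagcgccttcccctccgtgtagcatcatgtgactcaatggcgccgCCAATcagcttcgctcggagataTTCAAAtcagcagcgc
Cdc20 (chr4:118437344-118437443, minus strand): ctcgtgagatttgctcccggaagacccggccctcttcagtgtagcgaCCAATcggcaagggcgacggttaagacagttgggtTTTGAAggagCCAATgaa
F3 (chr3:121723437-121723536, plus strand): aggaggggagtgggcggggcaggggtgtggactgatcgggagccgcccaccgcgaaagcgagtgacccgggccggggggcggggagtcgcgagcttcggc
In these 5 promoters of genes higher in members, a CHR core ended 10 to 25 bases before the RefSeq start, and in Cdk1 a further one ended 66 bases before it. A match is a description of letters and not of binding.

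Marker UMIs separated the 3 libraries. No untreated astrocyte reached 5 marker UMIs (0 of 9818, which allows a share of up to 0.0306%), and the highest count there was 2. In neural stem cells 346 of 9145 cells met the same rule (3.78%), mostly with fewer than 20 marker UMIs. Depth also differed, with medians of 3156 UMIs per cell in the MIM-treated library, 1379 in neural stem cells and 5089 in untreated astrocytes. With each cell thinned to 2000 UMIs and shallower cells left out (3610 MIM-treated, 7530 neural stem and 677 untreated cells), 20.2% of MIM-treated cells, 11.2% of neural stem cells and 0% of untreated astrocytes held 5 or more marker UMIs. In the same order, the libraries held 50915129, 14696853 and 50598967 UMIs. Between 25 and 43 barcode sequences were shared by any pair of libraries.

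**Figure D1:**
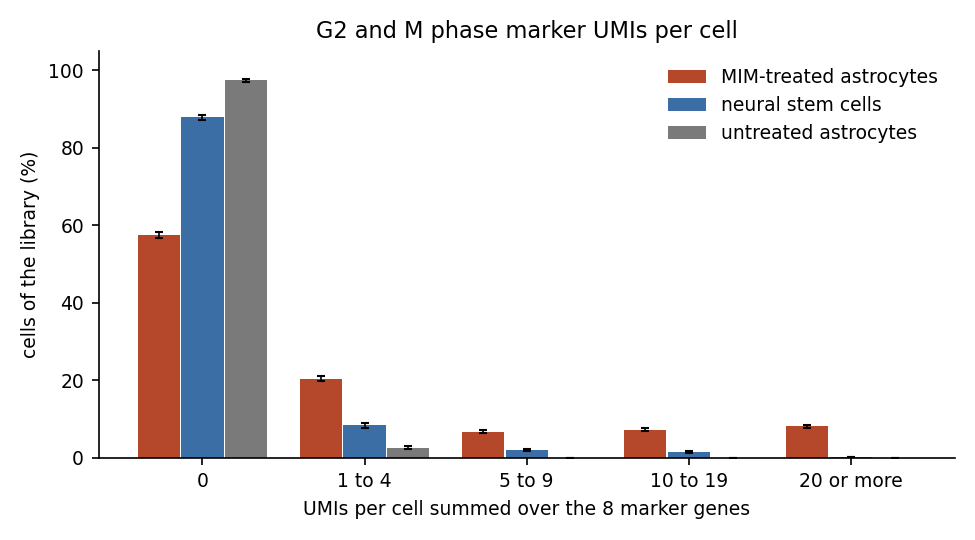
Share of the kept cells of each library (vertical axis, %) by UMIs per cell summed over the 8 marker genes (horizontal axis). Bars are shares, with exact 95% intervals for counting error. 8.13% of MIM-treated cells held 20 or more marker UMIs, against 0.208% of neural stem cells and no untreated astrocyte.

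Members held a median of 15 marker UMIs and at most 77. All 8 markers were detected in 773 members (23.4%), and at most 2 in 21. Cdca8, a subunit of the chromosomal passenger complex, was found in 89.8% of members, Birc5 (survivin) of the same complex in 84.1%, and Cenpf, a kinetochore protein, in 83.3%. Ube2c, which hands ubiquitin to the anaphase-promoting complex, was found in 80.0%, Ckap2l, a spindle protein, in 72.7% and Top2a, the topoisomerase that untangles sister chromatids, in 71.4%. Ccnb2 (cyclin B2) was found in 65.6% and Hmmr, a spindle assembly factor, in 61.1%. Ube2c gave the largest share of the marker UMIs (23.7%), and reached 31 UMIs in a single cell.

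The threshold fell within a gradient. The 227 cells with exactly 5 marker UMIs held 661 CPM (UMIs of the gene scaled to a total of 1e6) of Prc1 and 353 CPM of Cdk1. The 273 cells with 4, just outside, held 538 and 296 CPM. Deep cells passed more easily: members made up 2.06% of cells with 500 to 1000 UMIs, 18.3% of those with 2000 to 4000 and 64.3% of those with 8000 or more.

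To limit this dependence, each member was set against 1 cell of the same library with 0 marker UMIs and nearly the same total. This paired 2861 members (median 4230 UMIs) with 2861 cells (median 4200), and left 449 deep members (median 6714) without a partner. Matching also changed the cells compared. The unmatched members held 13059 CPM of Apoe against 9558 CPM in matched members, and matched cells held 23804 CPM against 21279 CPM in all cells with 0 marker UMIs. Genes are called higher or lower at a log2 ratio of 1 or beyond in either direction, with 1 CPM added to both levels, if one of the groups held 50 CPM or more. Of 2600 genes at that level, 341 were called higher in members (13.1% of genes tested) and 39 lower (1.5%). The higher genes were the 8 markers, 103 other genes of the cell cycle lists and 230 in no such list. The median log2 ratio over all 2600 genes was 0.20, not 0, and members' values below are best read against it.

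**Figure D2:**
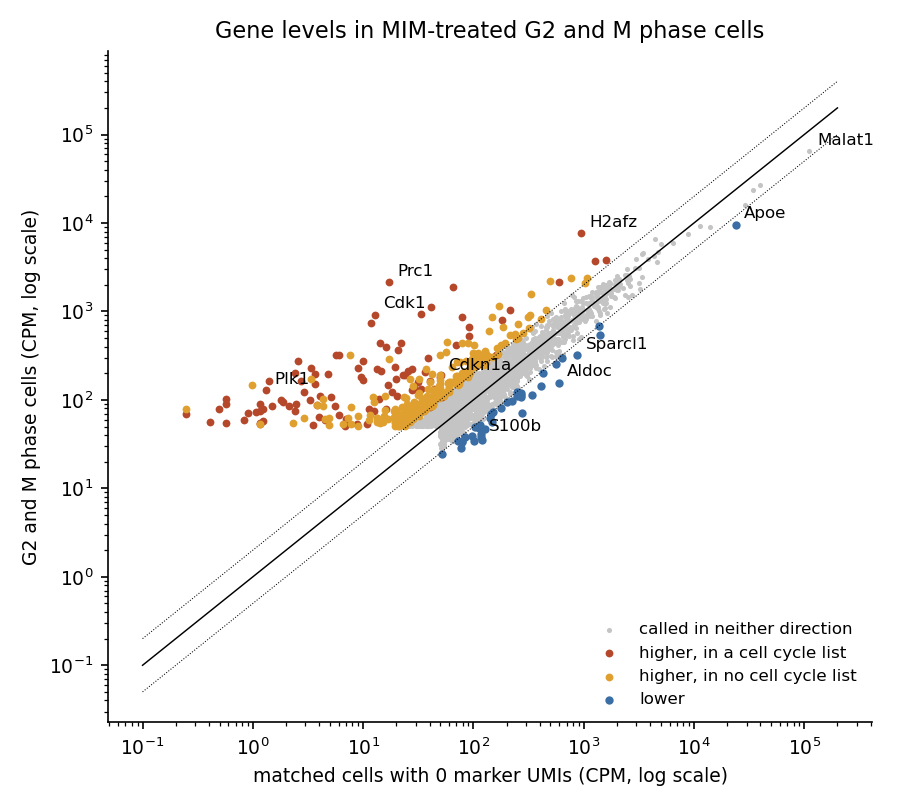
Level of each tested gene, markers left out, in matched members (vertical axis, CPM, log scale) and in matched cells with 0 marker UMIs (horizontal axis, CPM, log scale). The solid line marks equal levels and the dotted lines a ratio of 2 either way. Cell cycle genes such as Prc1 (2139 against 17.2 CPM) lie far above the lines, and Apoe and Aldoc lie below them.

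Regulators of mitosis were far higher in members. All 36 measured genes of this list had a log2 ratio of at least 1 (a gene was measured with 20 or more UMIs in both groups together), 19 were called, and the list median was 4.50. Measured genes under 50 CPM in both groups, here and in the lists below, could not be called. Cdk1 (chr10:69335146-69352938), the kinase that drives entry into mitosis, stood at 923 CPM (906 to 940) in members and 12.7 CPM (10.8 to 14.9) in matched cells, 72.7-fold higher (62.0 to 85.8). Plk1, the polo kinase of mitotic entry and spindle assembly, stood at 128 against 1.32 CPM, and Ccna2 (cyclin A2) at 165 against 1.40 CPM. Pttg1 (securin), which holds back the cleavage of sister chromatid cohesion, stood at 1875 against 65.2 CPM, and Cdc20, the activator of the complex that destroys it, at 199 against 2.39 CPM. These 5 genes thus cover mitotic entry and exit, and all are outside the selection rule. Free RNA can put UMIs of abundant genes into other cells, and 4.96% of matched cells held a Cdk1 UMI, against 84.3% of members.

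Spindle and kinetochore genes were also higher, and chromosome structure genes were higher by unequal amounts. Prc1 (chr7:80294450-80316259), which bundles microtubules at the midzone, was 124-fold higher (108 to 143) and was detected in 93.7% of members against 6.05% of matched cells. Of 30 spindle and cytokinesis genes 28 had a log2 ratio of at least 1 and 15 were called (median 4.43). Of 24 kinetochore and centromere genes 23 had such a ratio and 14 were called (median 4.20), among them Cenpa, the centromeric histone H3 (732 against 11.8 CPM), and Cenpe, a kinetochore motor (102 against 0.577 CPM, 176-fold, 85.3 to 439). The condensin subunit genes Smc2 and Smc4, which compact mitotic chromosomes, were 17.9-fold and 17.0-fold higher. The cohesin genes Smc1a (log2 ratio 1.49) and Smc3 (1.04), which hold sister chromatids together, were called higher by less. None of the genes in these lists was called lower.

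Tubulin genes split by isotype. Tubb5 (1045 against 214 CPM), Tuba1b (528 against 91.6), Tubb4b (165 against 40.4) and Tubb6 (59.2 against 4.53) were called higher, as was Stmn1 (868 against 78.5), which destabilises microtubules. Tuba1a, the main alpha tubulin of differentiating neural cells, was at 541 CPM in members and 695 CPM in matched cells, and Tubb2a and Tubb2b were also below 0 in log2 ratio, without a call. In all, 6 of 11 measured genes of the list were called higher and 4 lay below 0.

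Chromatin proteins that accompany division were also higher. Of 22 measured genes, 15 were called higher and none lower (median 1.87). H2afz, the histone variant H2A.Z, was at 7645 CPM against 953 CPM, 8.02-fold higher (7.87 to 8.18). Hmgb2, a DNA-bending protein, stood at 946 against 33.8 CPM, Lmnb1 (lamin B1, of the nuclear lamina) at 112 against 4.04 CPM, and Mki67, the source of the Ki-67 antigen, at 55.4 against 0.577 CPM. Mki67 had a UMI in only 20.1% of members, compared with 0.245% of matched cells.

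DNA replication genes were higher in members than in matched cells too. All 54 measured genes had a log2 ratio above 0, 52 of at least 1, and 24 were called (median 2.76). Rrm2, a ribonucleotide reductase subunit that makes deoxynucleotides, stood at 228 against 3.38 CPM, and Pclaf, a partner of the replication clamp, at 1131 against 41.6 CPM.

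Of the 230 higher genes in no cycle list, those with the largest ratios included the following. Esco2 (chr14:65819038-65833994), which acetylates cohesin, stood at 147 against 0.989 CPM, 149-fold higher (85.1 to 289), and Ube2t, a ubiquitin-conjugating enzyme of DNA crosslink repair, at 325 against 7.67 CPM. Gmnn (geminin), which blocks a new round of replication licensing, was at 290 against 17.1 CPM, Dbf4, the activator of the replication kinase Cdc7, at 86.0 against 4.37 CPM, and Mybl1, a relative of B-Myb, at 62.9 against 4.86 CPM. The 15 genes named here by the largest ratio outside the lists also held Pmf1 of the kinetochore (83.0 against 7.83 CPM) and Haus8 of the augmin complex (52.2 against 4.86 CPM).

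Members were also set against S phase cells of the same library. The rule written for this, cells with 0 marker UMIs and 5 or more UMIs over 10 replication markers such as Mcm3 and Gins2, found only 16 cells. After the values were seen it was widened to cells under 5 marker UMIs, which gave 99 cells (83 of them with 1 to 4 marker UMIs), each matched to 1 member. Members were left out of this class by rule. Of the 3310 members, 376 also held 5 or more UMIs over the 10 replication markers, and they stayed among the members available for matching. Of 2671 genes, 121 were called higher in members (4.53%) and 45 lower (1.68%). The S phase cells were chosen on replication genes, so those 10 genes are a description only.

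Beside S phase cells, members held more of the late genes and less of the early ones. The mitotic regulator list had a median log2 ratio of 2.56, with 16 of 21 measured genes called higher. Cenpa stood at 670 against 32.9 CPM (20.4-fold, 12.3 to 36.0), Plk1 at 107 against 8.23 CPM (13.0-fold, 4.79 to 49.6) and Prc1 at 2310 against 377 CPM. Of the 38 measured S phase genes that were not used to pick the cells, 7 were called lower and none higher (median -0.59, 31 below 0). Of all genes tested, 1.68% were called lower. Among the 7 were Hells, a chromatin remodeller (28.9 against 130 CPM), and Ccne2 (20.6 against 84.4) and Ccne1 (22.7 against 80.3), the E cyclins of the G1 to S transition. Pclaf was at 1205 against 1340 CPM and Rrm2 had a log2 ratio of 0.18, so these replication genes were about as high in members as in S phase cells.

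The replication-dependent histones did not follow the other S phase genes. Of 17 measured, 2 had a log2 ratio of at least 1, 3 of -1 or less, and 2 were called lower: Hist1h2bc (547 against 1404 CPM, 2.57-fold lower, 2.50 to 2.64) and Hist1h4i (41.7 against 116 CPM). Summed over 67 genes, the list took 724 CPM in members and 1632 CPM in matched cells, and Hist1h2bc made up most of it. Hist1h1b, linker histone H1.5, was at 21.0 against 4.45 CPM. As background, most core histone mRNA of S phase carries no poly(A) tail. The part of this in the histone values was not tested. In neural stem cells the 7 measured genes had a median of 0.75, and Hist1h2bc was at 106 CPM in members and 90.2 CPM in matched cells.

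Of 20 genes of G1 cyclins, inhibitors of cyclin-dependent kinases and related regulators, 4 were called higher in members and none lower. Of all genes tested 13.1% were called higher, but listed genes under 50 CPM in both groups, such as Cdkn2a, could not be called. All 4 called genes were among the 7 inhibitors of the list, a grouping made after the values were seen. Cdkn2c (p18) stood at 122 against 18.1 CPM, Cdkn2d (p19) at 159 against 31.2, Cdkn1b (p27) at 82.5 against 40.4 and Cdkn1a (p21, chr17:29090976-29100727) at 183 CPM (175 to 191) against 49.7 CPM (45.8 to 53.8). In neural stem cells 3 of the 7 inhibitors were called higher, against 7.78% of all genes tested, among them Cdkn2d (71.9 against 9.33 CPM). Cdkn1a was at 23.6 CPM in members and 22.8 CPM in matched cells there. The inhibitors Cdkn2a (35.4 against 44.4 CPM) and Cdkn2b (p15, log2 ratio -0.48) lay below 0. The D cyclin Ccnd2 was at 108 CPM in MIM-treated members and 143 CPM in matched cells. Beside S phase cells, 3 of 5 measured inhibitors were called higher in members, against 4.53% of all genes tested. Cdkn2c was 5.08-fold higher (2.84 to 9.76), Cdkn2d 3.11-fold (2.03 to 4.90) and Cdkn1a 1.97-fold (1.40 to 2.78), the last without a call.

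Cdkn1a is also a target of p53, the DNA damage response factor. Of 12 measured p53 targets 2 were called higher, Cdkn1a and Phlda3 (111 against 37.8 CPM). The 13.1% of all genes called higher counts only genes with 50 CPM or more in a group, so the 2 shares have unlike bases. Bax, a pore-forming death protein, was at 969 against 505 CPM and Ccng1 at 107 against 60.7 CPM, both with a log2 ratio under 1. The list median was 0.50 in MIM-treated cells and 0.05 in neural stem cells, where 1 of 9 was called lower and the sign changed with the scaling (-0.09 to 0.10). The stress response list of ATF4 targets had a like split, with a median of 0.86 over 14 genes in MIM-treated cells and -0.01 over 9 in neural stem cells (-0.15 to 0.04). Nupr1, a stress-induced chromatin protein, was its only call (103 against 36.8 CPM). The difference between the libraries was not tested.

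Astrocyte genes were lower in members. All 24 measured genes of this list had a log2 ratio below 0, 9 of -1 or less, 7 were called lower and none higher (median -0.88). Of all genes tested, 1.5% were called lower. Aldoc (chr11:78322968-78327781), the brain form of aldolase, stood at 157 CPM (150 to 164) in members and 595 CPM (581 to 609) in matched cells, 3.80-fold lower (3.61 to 4.00). S100b, a calcium-binding protein of astrocytes, was at 37.9 against 117 CPM and Sparcl1 (hevin), a secreted synapse-forming protein, at 322 against 873 CPM. Apoe (chr7:19696109-19699188), the lipid carrier, was at 9558 against 23804 CPM, 2.49-fold lower (2.47 to 2.51). Without matching, Apoe and Aldoc differed by less. Over all members and all cells with 0 marker UMIs, Apoe was at 10307 against 21279 CPM and Aldoc at 167 against 525 CPM. Glul, which makes glutamine from glutamate, was at 96.0 against 222 CPM. Of 25 genes in the list, the other 2 called lower were Slc4a4, a bicarbonate transporter, and Cldn10.

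Several astrocyte genes were close to the matched level or barely present. Slc1a3, the gene of GLAST, was at 336 against 414 CPM and Gja1 (connexin 43) at 58.5 against 71.0 CPM. Gfap, the astrocyte intermediate filament, gave only 1.81 CPM in members and 6.68 CPM in matched cells, and Aqp4 (aquaporin 4) was detected in 6.29% of members and 10.6% of matched cells. Detection in members thus varied by gene. Apoe was found in 98.8% of matched members, Sparcl1 in 53.2%, Aldoc in 39.8%, S100b in 13.8% and Gfap in 0.734%. Summed over the list, astrocyte genes took 2.73% of UMIs in members and 5.67% in matched cells.

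Among the other genes with the lowest ratios, chosen by size, were the following. Ndrg2, a growth-suppressing gene of astrocytes, was at 145 against 412 CPM, and Hopx, a homeodomain protein of quiescent stem cells, at 46.5 against 128 CPM. F3 was at 34.9 against 119 CPM, Abat, which breaks down GABA, at 108 against 273 CPM, and Mgll, which breaks down the endocannabinoid 2-arachidonoylglycerol, at 38.7 against 96.1 CPM. Sat1, the enzyme that acetylates polyamines for breakdown and export, was at 115 against 268 CPM, and was the only 1 of 10 polyamine genes called.

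The makeup of the RNA also moved with the same contrast. Malat1, a nuclear RNA, took 6.44% of UMIs in matched members and 11.1% in matched cells, mitochondrial genes 1.78% against 2.18%, and ribosomal protein genes 9.06% against 7.29%. All 80 measured ribosomal protein genes lay above 0, with a median log2 ratio of 0.30. At 2000 UMIs per cell, members had a median of 999 genes and matched cells 878. The part of these in the other differences was not tested. The astrocyte list median was -0.96 with Malat1 left out of the totals, and lay between -1.01 and -0.82 over 5 scalings. Members also had higher doublet scores, from a caller that did not work on this library, so the part of doublets was not tested.

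Levels of astrocyte and cycle genes moved step by step with the marker count. At 2000 UMIs per cell, cells with 0, 1, 2 to 4, 5 to 9, and 10 or more marker UMIs numbered 6708, 1125, 1229, 1227 and 1065. Aldoc was at 517, 392, 206, 161 and 94.4 CPM in these classes, and S100b at 118, 90.2, 43.1, 37.9 and 31.0 CPM. Cdk1 went the other way, at 21.6, 102, 354, 770 and 1377 CPM. The S phase list peaked before the end, at 601, 1700, 4308, 4713 and 3562 CPM summed over its genes, and Mcm4 of the replicative helicase was at 109 CPM in the fourth class and 62.9 CPM in the last. Fabp7, a fatty acid-binding protein of radial glia, fell by less, from 10378 CPM in the first class to 8646 CPM in the last.

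**Figure D3:**
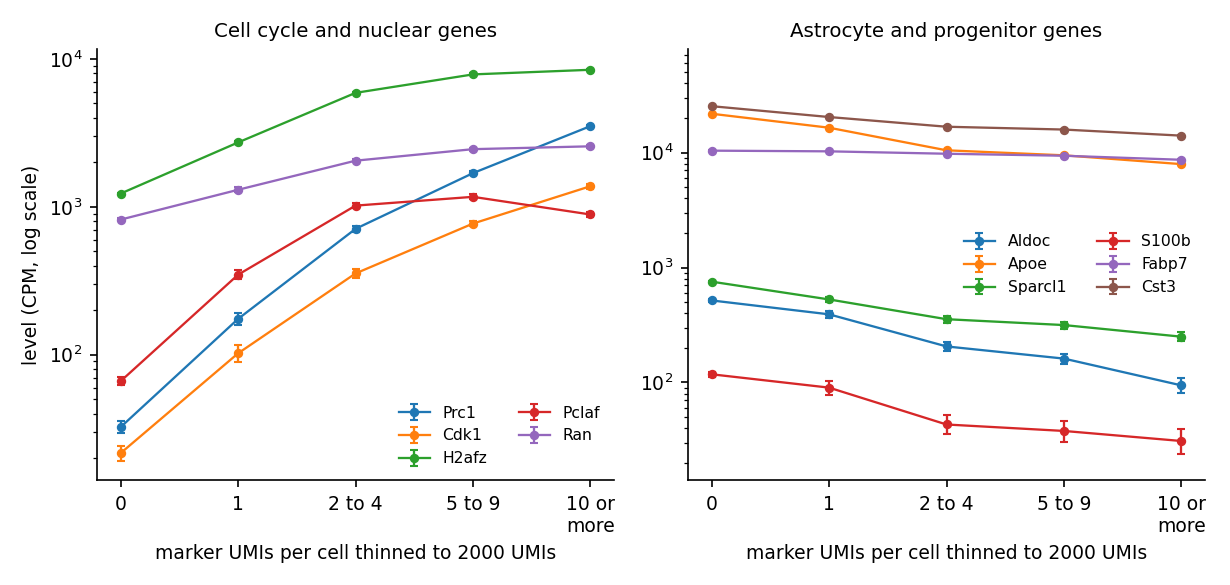
Levels (vertical axes, CPM, log scale) of cell cycle and nuclear genes (left) and of astrocyte and progenitor genes (right) in MIM-treated cells thinned to 2000 UMIs, by marker UMIs per thinned cell (horizontal axis). Points are summed levels per class and bars exact 95% intervals for counting error. Aldoc is at 517 CPM in cells without marker UMIs and at 94.4 CPM in those with 10 or more, while Pclaf peaks at 1167 CPM in the class of 5 to 9.

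Astrocyte genes in S phase cells lay between the levels of members and of cells without marker UMIs. Beside those 99 cells, no astrocyte gene was called lower in members, and the list median was -0.39. Apoe was at 10561 CPM in members and 15381 CPM in S phase cells, Aldoc at 171 against 286 CPM and Sparcl1 at 410.5 against 576 CPM. Hopx, outside the list, was called lower (22.7 against 84.4 CPM). Cells with 1 to 4 marker UMIs also lay between: beside 3044 matched cells with 0, they held 390 against 552 CPM of Aldoc, and of 2369 genes 43 were called higher (1.82%) and 0 lower (0%).

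Genes of neural stem cells and progenitors differed little between members and matched cells. None of 17 measured genes was called, and the median was -0.11. Sox2, a transcription factor of neural progenitors, stood at 138 against 149 CPM, Egfr at 43.6 against 47.5 and Nes (nestin) at 60.2 against 42.5 CPM. Hes5, a Notch target, was at 43.0 against 68.9 CPM. Notch pathway genes (11 measured, median -0.16) and FGF and MAPK feedback genes (13 measured, median -0.06) had no call, with Spry2, an FGF feedback inhibitor, at 352 against 369 CPM. Genes under 50 CPM in both groups, such as Egfr, could not be called, so no call is not a result for every measured gene. By thinned marker count, Hes1, Lfng, Spred1 and Etv4 were under 50 CPM in every class.

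Microglial, endothelial and mural markers were near 0 in members and in matched cells, while the oligodendrocyte lineage gene Olig1 was well detected. Of 10 microglial genes, all were at 0 UMIs in members, including Csf1r, Ptprc and C1qb, and the sum in matched cells was 0.247 CPM. Endothelial genes summed to 0.247 against 0.824 CPM, and mural and fibroblast genes to 7.48 against 7.17 CPM. In the oligodendrocyte lineage list, none of 9 measured genes was called and 7 lay below 0. Those under 50 CPM in both groups, such as Pdgfra, could not be called. Olig1, a transcription factor of that lineage, was at 304 against 520 CPM and was detected in 61.0% of members and 74.3% of matched cells. By thinned marker count it was at 653, 664, 472, 314 and 232 CPM, and in neural stem cells it was called lower in members (362 against 816 CPM). Olig2 was at 56.7 against 55.4 CPM, while Pdgfra, the defining receptor of oligodendrocyte precursors, was at 0.329 against 0.412 CPM. The neuronal gene Tubb3 was at 1.73 against 2.72 CPM.

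MIM can include methionine, glycine, threonine and putrescine, although the mixture for this library is not given. Genes of their use were therefore described as a list. None of 26 measured one-carbon and methionine genes was called, and 4 had a log2 ratio of at least 1 at levels under 50 CPM. Mthfd2, the mitochondrial folate enzyme, was at 43.2 against 6.10 CPM, Shmt2, which makes glycine from serine, at 33.0 against 14.5 CPM, Shmt1 at 8.88 against 0.742 and Gart, of purine synthesis, at 18.5 against 8.08 CPM. The list median of 0.12 changed sign with the scaling (-0.01 to 0.18). Phgdh, the first enzyme of serine synthesis, was at 190 against 196 CPM. Beside S phase cells Mthfd2 was at 51.6 in members against 78.2 CPM, and neither direction was called.

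Splicing and nuclear transport genes had the most higher calls among the lists outside the cycle. All 21 measured genes had a log2 ratio above 0, and 13 were called higher, with a sum of 8294 CPM in members and 3385 CPM in matched cells. Ran, the GTPase of nuclear transport and spindle assembly, stood at 2399 against 775 CPM, its partner Ranbp1 at 866 against 313 CPM, the core splicing protein gene Snrpd1 at 920 against 326 CPM and Hnrnpab at 339 against 110 CPM. Beside S phase cells the list median was 0.01, of either sign by scaling (-0.03 to 0.04), with Snrpd1 at 928 against 922 CPM, and in neural stem cells it was 0.68 with 2 called. Chaperones (24 measured, median 0.41) had 1 call, Hsp90aa1 (335 against 165 CPM). Glycolysis genes lay mostly lower, 11 of 15 below 0 with a median of -0.42 and Aldoc as the only call, and the 83 nuclear genes of oxidative phosphorylation had a median of -0.10 and no call.

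**Figure D4:**
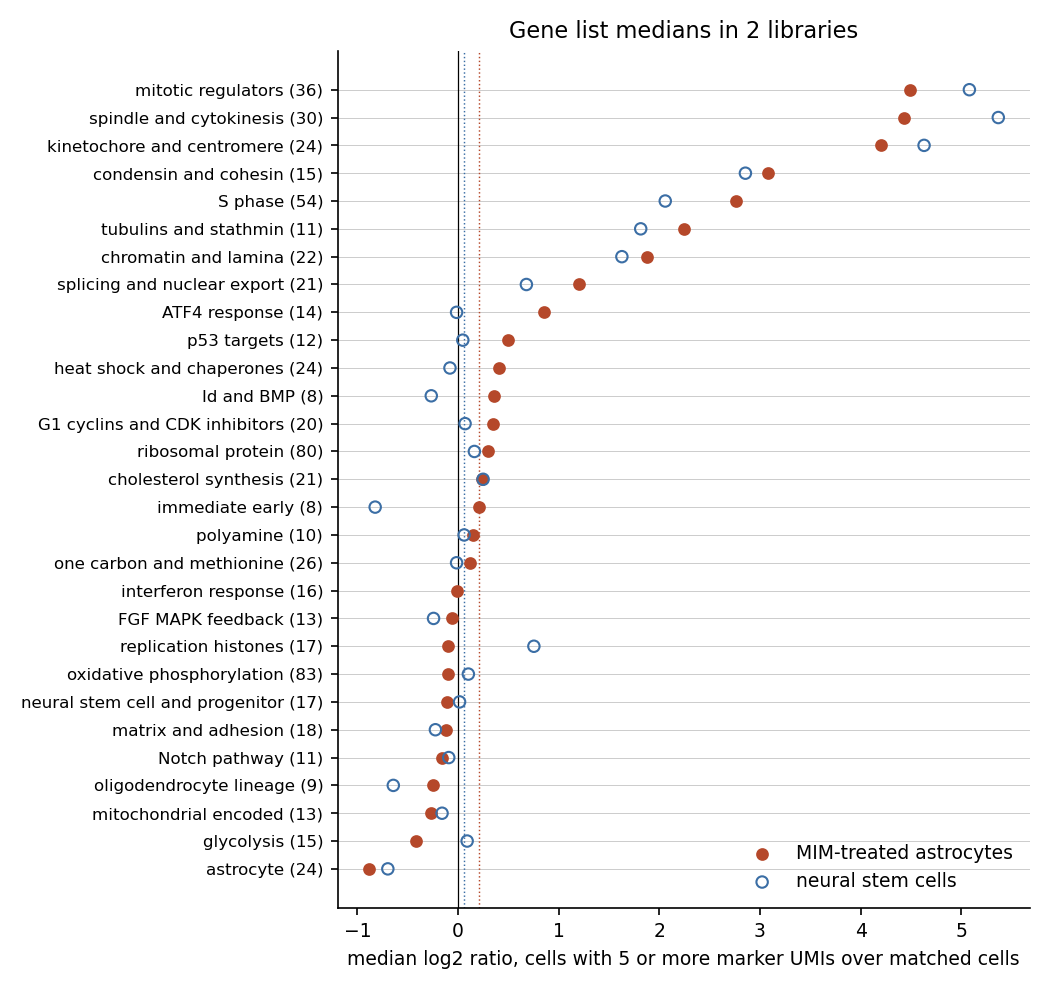
Median log2 ratio of each gene list (horizontal axis), cells with 5 or more marker UMIs over matched cells with 0, in MIM-treated astrocytes (filled) and neural stem cells (open, where at least 5 genes were measured). Numbers in brackets count measured genes in MIM-treated cells, and dotted lines mark the medians over all tested genes (0.20 and 0.06). Cell cycle lists lie at the top right, and astrocyte genes are lowest in MIM-treated cells (-0.88).

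Untreated astrocytes held no members, so their levels can only be set beside those of all their cells, at another depth. Prc1 was at 0.810 CPM there, 22.3 CPM in all MIM-treated cells with 0 marker UMIs and 2172 CPM in all members. Cdk1 was at 5.04, 18.3 and 924 CPM, and H2afz at 468, 1126 and 7396 CPM, in the same order. Untreated cells were thus lowest for these cycle genes. Apoe was at 12462 CPM in untreated astrocytes, above the members' level and below the 21279 CPM of MIM-treated cells with 0 marker UMIs. Aldoc, at 895 CPM, was highest in the untreated cells, while S100b was lowest there at 11.8 CPM. Cdkn1a was at 49.8 CPM in untreated astrocytes and 44.7 CPM in MIM-treated cells with 0 marker UMIs.

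The same contrast in neural stem cells came from a library that the comparison above did not use. There 339 cells with 5 or more marker UMIs were matched, and of 2724 genes 212 were called higher (7.78%) and 37 lower (1.36%). Leaving Malat1 out of the totals gave 225 higher and 132 lower, so the share of calls that were higher went from 85.1% to 63.0%. With the markers left out, 165 genes were called higher in both libraries, which is 49.5% of the 333 in MIM-treated cells and 80.9% of the 204 in neural stem cells. Only 266 of the 333 and 175 of the 204 were tested in the other library, and 165 is 62.0% and 94.3% of those. A gene was tested if either group held 50 CPM, so genes near 0 without markers, such as Esco2, were tested only through members. For such genes, being tested in the other library comes close to being called there. Across 2141 genes tested in both, the log2 ratios had a Pearson correlation of 0.91, and across the 2038 outside the cycle lists 0.79 (genes are not independent, and depth differed). Those 2038 still include genes such as Esco2 and Gmnn, which serve the cell cycle but are in no such list. The same 8 markers chose the members of both libraries, so the shared calls and the correlations are a description.

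Lower calls were fewer in both libraries. Of these, 4 genes were called lower in both, 10.3% of the 39 in MIM-treated cells and 10.8% of the 37 in neural stem cells, and no gene was called in opposite directions. Only 27 of the 39 and 12 of the 37 were tested in the other library, of which 4 is 14.8% and 33.3%. In neural stem cells Sparcl1 was at 252 against 557 CPM and called lower, and Aldoc was at 37.0 against 71.6 CPM, not called (log2 ratio -0.93). Apoe was at 3235 against 5209 CPM, a log2 ratio of -0.69 beside -1.32 in MIM-treated cells. The astrocyte list had a median of -0.70 there, with 17 of 20 measured genes below 0 and 4 called lower, against 1.36% of all genes tested. Whether the size differs between libraries was not tested.

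**Figure D5:**
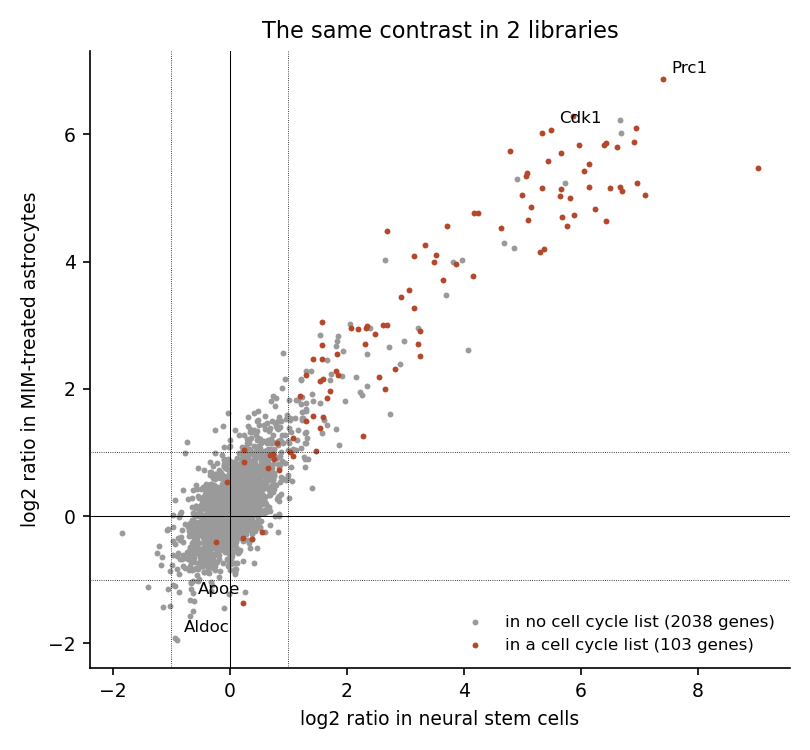
Log2 ratio of cells with 5 or more marker UMIs over matched cells, in MIM-treated astrocytes (vertical axis) and neural stem cells (horizontal axis), for the 2141 genes tested in both, markers left out. Dotted lines mark log2 ratios of -1 and 1. Cell cycle genes run along the diagonal at the upper right, with Cdk1 at 5.49 (horizontal) and 6.08 (vertical), and Apoe lies at the lower left (-0.69 and -1.32).

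Marker proportions differed between members in the 2 libraries. Top2a and Cenpf gave 10.1% and 15.2% of marker UMIs in MIM-treated members and 18.4% and 22.4% in neural stem cells. Ube2c gave 23.7% against 18.5% and Birc5 12.5% against 7.84%. Pooled over members, the level of Prc1 was 2172 CPM in MIM-treated cells and 2265 CPM in neural stem cells, and that of Cdk1 924 and 399 CPM.

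Within MIM-treated members, no gene was called by the balance of the markers. Members were split at the median share (40%) of Top2a, Cenpf, Hmmr and Ckap2l among their marker UMIs, with 961 members within 5 percentage points of that share. Of 2506 genes, 0 were called higher (0%) and 0 lower (0%) between the 1639 members above it and the 1671 at or below it, also with TMM scaling. The markers were among these genes, so even Top2a, Cenpf, Hmmr and Ckap2l, whose share defined the split, were not called. At this threshold the split was too weak for the lack of calls to say that the members were alike. Aspm, a spindle pole protein, was 1.26-fold higher (1.13 to 1.40) in the first set, and Ckap5, a microtubule polymerase, 1.24-fold (1.16 to 1.32). Cdk1 was at 928 and 920 CPM, Apoe at 10297 and 10316 CPM.

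Promoter letters of the called genes can be set beside the groups above. Both motifs were in the window of 12 of the 25 mitotic regulators that had one (48%), 15 of 28 spindle genes (53.6%), 5 of 41 S phase genes (12.2%) and 0 of 20 astrocyte genes. Among genes called higher, markers left out, 46 of 267 with a window held both (17.2%). Among genes called in neither direction it was 75 of 1790 (4.19%), and among lower genes 0 of 29. CCAAT, with or without TTTGAA, was found in 56.6% of higher, 51.7% of lower and 39.3% of uncalled genes. TTTGAA, with or without CCAAT, was found in 24.0%, 3.45% and 10.0%.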

How the data were processed

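The deposited matrices hold UMI counts per gene and cell, made by the authors; Cell Ranger 3.0.2, Seurat 3.1.1 and the build mm10 are named, without roles, per the submitters' processing notes. Each of 3 libraries had 31053 genes. Filters removed 13, 12 and 7 barcodes of the MIM-treated, neural stem cell and astrocyte libraries. The members and gene lists were chosen with earlier results of these data known. Cells were matched 1 to 1 in bins of 0.05 log10 UMIs, drawn with seed 1. UMIs were summed per group, with exact Poisson intervals for CPM and exact conditional binomial intervals for ratios. With 1 library per group there was no test. S phase cells were redefined after the values were seen. Named genes were the 8 markers, the 15 with the largest log2 ratio outside them, the 15 largest in no cycle list, the 15 lowest, and the 4 most abundant of each of 37 lists; gene models and mitochondrial, ribosomal, sex-linked and haemoglobin genes were not eligible by ratio. Other genes were picked as list examples after their values were seen. Scrublet called 1 doublet (0.00668%), so it did not work and doublets were kept; of members, 13.0% were among the 8% of cells with the highest scores, against 6.10% of other cells. Coordinates come from GENCODE vM21 (GRCm38), with all 183 named genes found by their ID. The script was tested on simulated data. R 4.3.3 with edgeR 4.0.16 gave the TMM factors only, and all else was done in Python 3.11.15 (scanpy 1.11.5, scipy 1.17.1, numpy 2.4.6, matplotlib 3.10.9, pandas 2.3.3). Alternatives changed the marker threshold, matching, scaling, pseudocount, level threshold, cell filters and doublet removal.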

Additional observations from a re-analysis of the deposited data

How the results depend on the processing

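No paired analysis was possible because each group is 1 library. Against 341 genes higher and 39 lower in members, a level threshold of 20 CPM gave 555 and 75, 100 CPM gave 207 higher, and no threshold gave 1047 and 217. The remaining settings and scalings gave 285 to 392 higher and 28 to 58 lower. With TMM, whose scaling moved the median of all genes by -0.13, it was 285 and 58, and all 285 were among the 341. The 39 lower genes also stayed called with TMM. Against all cells with 0 marker UMIs, without matching, only 284 of the 341 higher and 20 of the 39 lower genes stayed called. The share of members was 26.1% with 3 or more marker UMIs, 15.4% with 10 or more, 31.0% with cells thinned to 2000 UMIs and 2 or more, 23.2% with at least 500 genes and at most 10% mitochondrial UMIs, 20.8% without the highest Scrublet scores and 20.2% without the deepest cells. A pseudocount of 10 CPM gave 25 genes lower than in S phase cells (45 before) and 17 lower in neural stem cells (37 before). Under 18 settings, 818 of 3294 values of the 183 named genes moved by more than their counting interval. None was counted as reversed, but that count does not hold every change of sign. Ratios near 0, such as that of Olig2, can change sign with the scaling. With 99 S phase cells and 339 neural stem cell pairs, counting error limits those comparisons to well-detected genes.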
